A study of Mus musculus with 20 samples.

Results

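The collagen chains, laminin chains, nidogens, perlecan and agrin of mouse kidney epithelial cells were followed across 4 groups of libraries. Members were the protein-coding genes whose symbol consists of Col, a number, a and a number, or of Lam, a, b or c and a number, together with Nid1, Nid2, Hspg2 and Agrn. The rule gave 59 of the 39179 genes in the count tables. No measured value entered the rule, but it was chosen with earlier results of these data known. Of these, 21 encode basement membrane components, 11 encode fibrillar collagens and 27 encode other collagens. The basement membrane set held the 6 collagen IV chains, 5 laminin alpha, 3 beta and 3 gamma chains, and Nid1, Nid2, Hspg2 and Agrn.

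RNA sequencing was done on immortalised mouse kidney epithelial cells of strain C57BL/6J, in 4 groups of 5 libraries, to compare cells with and without Fh1, the gene of the TCA cycle enzyme fumarate hydratase. All groups were grown in the same medium, DMEM with serum and added uridine. The control group, named Fh1_fl_fl, has the genotype Fh1 wt. The groups clone1 and clone19 are both labelled as Fh1 deletion, and each name stands for 1 clone. In the Rec group wild-type Fh1 was put back, and the clone from which Rec was made is not given in the sources used here, nor is the deleted part of the gene. It is not stated if separate cultures gave the 5 libraries of each group, and the p-values therefore rest on a spread between libraries that may be technical. With 1 clone per name, a difference between clone and control cannot be told apart from differences between cell lines that arose in cloning.

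Basement membranes are thin sheets under epithelia, built from a laminin network and a collagen IV network that nidogens and the proteoglycan perlecan connect. Laminins are trimers of an alpha, a beta and a gamma chain. Collagen IV is made as trimers of alpha1 and alpha2 chains in most tissues and as trimers of alpha3, alpha4 and alpha5 or of alpha5 and alpha6 in some, including parts of the kidney. Fibrillar collagens such as types I, III and V form the rope-like fibrils of connective tissue and are made mainly by mesenchymal cells.

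Gene totals ran from 5988447 to 18972176 counts per library (median 10485784). Levels are counts relative to scaled library sizes on the customary CPM scale, and fold changes are log2 values with their standard error, called at an adjusted p under 0.05 in edgeR's quasi-likelihood test over 12671 genes. Fh1 itself was counted at 92.4 ± 6.16 CPM (SD, n = 5) in the control, 113 ± 5.94 in clone1, 84.8 ± 7.32 in clone19 and 71.3 ± 7.08 in Rec; a count over the whole gene does not measure a deletion of part of it, so the labels were not checked by it. Replicate 3 of clone19 stood apart: the gene Gm42418 took 8.2% of its counts, against a median of 0.314% over the libraries. Leaving it out moved no count of called members by 1.5 times or more. All 9 kidney epithelial markers were at 1 CPM or more in every group. Their summed level was 3524 to 4076 CPM in the control and 2725 to 3363 in clone1. In clone19 the sum was 2141 to 2451 CPM, and in Rec it was 4372 to 4821. The sums in clone1 and Rec mixed opposite changes of single markers. In clone1, mean Epcam was 86.7 CPM against 439 in the control, and mean Pax8 was 371 against 194. In Rec, mean Krt8 was 959 CPM against 565 in the control, and mean Cdh16 was 594 against 831.

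Of the 59 members, 29 had enough counts to be tested: 17 of the 21 basement membrane genes, 5 of the 11 fibrillar collagens and 7 of the 27 other collagens. In clone1 against the control, 13 of the 29 were higher and 10 lower, or 79.3%, where 78.6% of all tested genes were called (38% higher, 40.5% lower). In clone19, 19 were higher and 6 lower, where 72.9% of all tested genes were called (36.8% higher, 36.1% lower). In Rec, 6 were higher and 15 lower, where 70.8% of all tested genes were called (33.4% higher, 37.4% lower). Most tested genes were called in each of the 3 comparisons, so the members' counts are read against those shares. The 3 comparisons share the 5 control libraries and are given side by side. The median log2 fold change of the 29 was 0.17 in clone1, 0.61 in clone19 and -0.59 in Rec, beside -0.03, 0.00 and -0.03 over all tested genes. The median size of the change, regardless of direction, was 1.33, 0.94 and 1.11, beside 0.58, 0.48 and 0.44 over all tested genes. With library totals in place of scaling, the share of called genes that were higher in Rec was 36.5% in place of 47.2%, and the median over all tested genes was -0.17 in clone1, -0.12 in clone19 and -0.17 in Rec, so small changes are read relative to that shift. Under library totals, 11 members were higher and 12 lower in clone1, 17 and 6 in clone19, and 5 and 15 in Rec. Groups did not overlap in any library for 19, 17 and 19 of the 29 members. The matching share over all tested genes was not computed, so these counts are not read as particular to the members.

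Between the 2 clones, 13 members were higher in clone19 and 5 lower, where 65.1% of all tested genes were called (33.5% higher, 31.6% lower). The count of 5 was 8 without clone19 replicate 1 and 9 with no filter on low counts. Rec against clone1 had 8 higher and 15 lower, where 77.9% of all tested genes were called (39.7% higher, 38.1% lower). Rec against clone19 had 3 higher and 21 lower, where 73.8% of all tested genes were called (35.8% higher, 38% lower). The median log2 fold change over the 29 members in Rec was -0.37 against clone1 and -0.88 against clone19, beside 0.01 and -0.02 over all tested genes.

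Several genes that were higher in both clones than in the control were lower in Rec than in either clone. Col4a1 was lower in Rec than in clone1 (-6.23, standard error 0.31, adjusted p = 2.94e-16) and than in clone19 (-7.33, standard error 0.28, adjusted p = 3.41e-18). The log2 fold change of Lama5 was -1.28 and -1.24, of Lamc1 -1.85 and -0.88, of Col5a1 -4.32 and -4.50, and of Col6a1 -3.94 and -3.04 in the same order, and the libraries of Rec and of the clones did not overlap for any of these. Col4a3 and Col4a4, which the clones held low, were higher in Rec than in clone1 (1.20 and 0.65) and lower than in clone19 (-0.63 and -1.03).

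**Figure D1:**
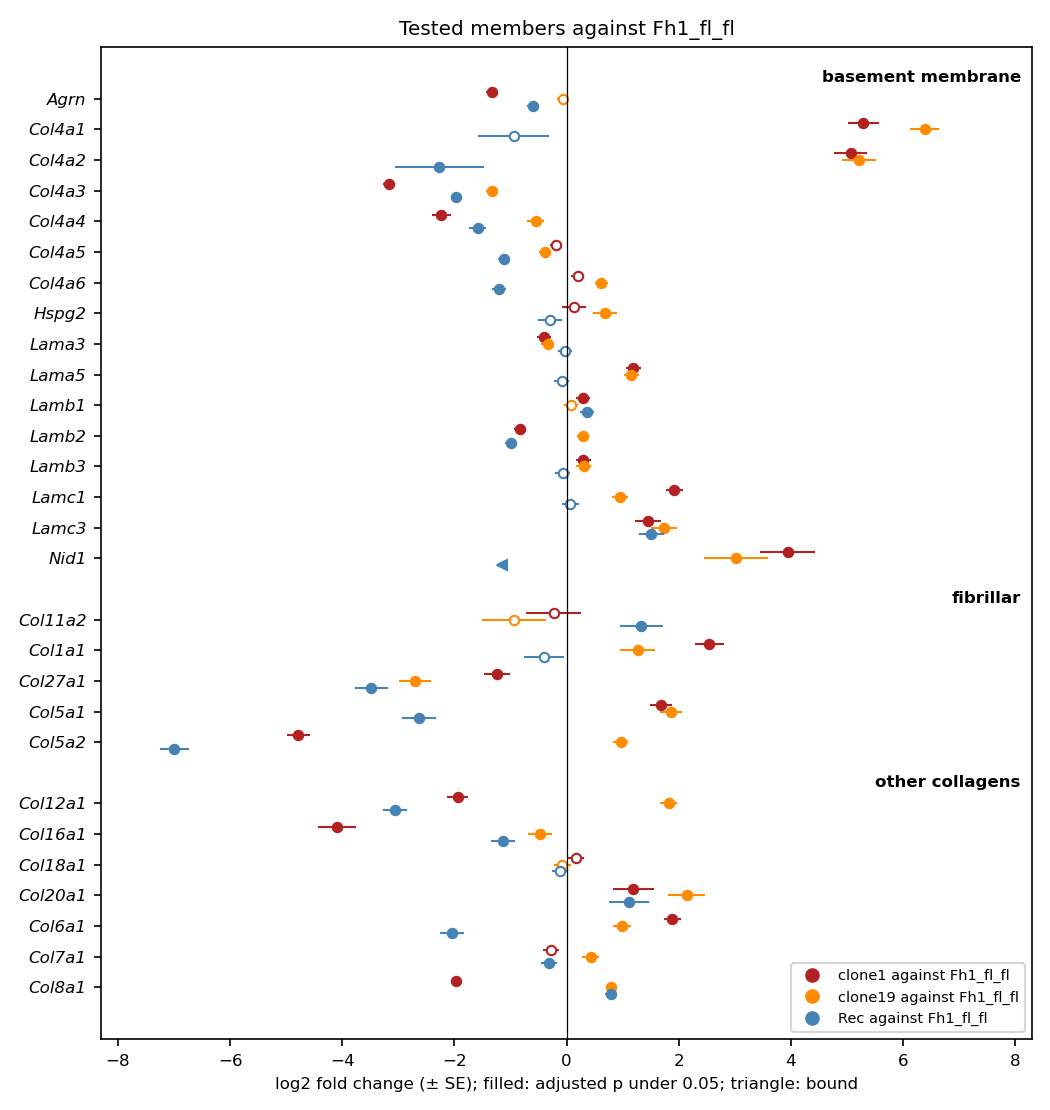
Log2 fold change with standard error of tested members (rows, by class) in clone1, clone19 and Rec against the control; filled points have an adjusted p under 0.05. The points for Col4a1 and Col4a2 lie furthest to the right in both clones, and those for Col5a2 lie far to the left in clone1 and Rec but not in clone19; the triangle for Nid1 in Rec is a bound, since no Rec library had a count.

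The collagen IV genes lie in head-to-head pairs on 3 chromosomes, and each pair showed a pattern of its own across the groups. Col4a1 and Col4a2 encode the alpha1 and alpha2 chains of the common trimer and overlap by 22 bases at their first exons. Col4a3 and Col4a4 lie 71 bases apart, and Col4a6 and Col4a5 lie 1308 bases apart on chromosome X. Sequences at the paired starts are shown. Col4a1 and Col4a2 share their printed stretch, as do Col4a3 and Col4a4, whereas Col4a6 and Col4a5 have separate stretches. The sequences are from RefSeq, build GRCm38.p6. Capitals mark the GC box GGGCGG or its reverse complement CCGCCC and the CCAAT box. The overlap of Col4a1 and Col4a2 is given on the plus strand (chr8:11312805-11312826), as is the interval of Col4a4 and Col4a3 (chr1:82586850-82586920). The Col4a6 sequence is the 250 bases before its start, on the minus strand (chrX:141474077-141474326), and the Col4a5 sequence is the 216 bases before its start, on the plus strand (chrX:141475169-141475384).
Col4a1-Col4a2: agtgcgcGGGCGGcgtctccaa
Col4a3-Col4a4: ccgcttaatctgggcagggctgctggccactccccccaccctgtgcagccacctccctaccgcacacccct
Col4a6: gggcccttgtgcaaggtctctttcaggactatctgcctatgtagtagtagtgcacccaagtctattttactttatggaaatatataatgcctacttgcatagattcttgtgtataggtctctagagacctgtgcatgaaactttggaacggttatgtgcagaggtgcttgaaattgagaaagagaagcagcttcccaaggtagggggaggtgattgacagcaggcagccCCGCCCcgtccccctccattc
Col4a5: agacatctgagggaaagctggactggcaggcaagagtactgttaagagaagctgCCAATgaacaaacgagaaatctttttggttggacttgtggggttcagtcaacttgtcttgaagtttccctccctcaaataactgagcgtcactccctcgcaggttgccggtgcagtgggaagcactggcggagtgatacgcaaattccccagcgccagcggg
These stretches hold 4, 2, 3 and 8 CpG, in that order. The 71 bases between Col4a4 and Col4a3 hold neither the GC box nor the CCAAT box, nor the TATA letters TATAAA, on either strand, which says only that these letters are not in that window.

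Col4a1 was nearly silent in the control and in Rec and was present in both clones. Its levels were 0.245, 0.623, 0.405, 0.358 and 0.504 CPM in the control, 12.7, 17.3, 13.4, 15 and 21.5 in clone1, 40.8, 25.5, 30.5, 35.1 and 40.5 in clone19 and 0.0935, 0, 0.0818, 0.235 and 0.463 in Rec. In both clones all libraries exceeded those of the control and of Rec, and clone19 lay above clone1 without overlap. The means were 0.427 ± 0.144 CPM, 16 ± 3.55, 34.5 ± 6.61 and 0.175 ± 0.182 (SD, n = 5). Against the control the log2 fold change was 5.29, standard error 0.26, adjusted p = 2.99e-16 in clone1 and 6.39, standard error 0.24, adjusted p = 2.29e-18 in clone19. Clone19 exceeded clone1 by 1.1, standard error 0.15, adjusted p = 3.61e-07. The difference of Rec from the control, -0.94, standard error 0.61, adjusted p = 0.172, did not pass the threshold, and its adjusted p fell to 0.0287 without Rec replicate 5.

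Its partner Col4a2 was likewise present in both clones, where its levels overlapped. Its levels were 0.343, 0.623, 0.243, 0.287 and 0.432 CPM in the control, 11.9, 11.8, 9.90, 14 and 16.4 in clone1, 19.2, 8.75, 12.8, 12.8 and 17.8 in clone19 and 0, 0, 0, 0.235 and 0.116 in Rec. Both clones again lay above all control libraries, while 3 Rec libraries had no count. Set against the control, the log2 fold change was 5.07, standard error 0.28, adjusted p = 3.64e-15 in clone1, 5.21, standard error 0.28, adjusted p = 3.69e-15 in clone19 and -2.27, standard error 0.78, adjusted p = 0.0121 in Rec. The value in Rec, which rests on 4 counts, was -2.89 without Rec replicate 4. Clone19 and clone1 did not differ past the threshold (0.15, standard error 0.17, adjusted p = 0.468). Per kilobase of merged exons, the Col4a1 level was 1.11 ± 0.158 times that of Col4a2 in clone1 and 2.21 ± 0.292 times in clone19. Reads in the 22 shared bases cannot be given to either gene without a strand setting.

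Col4a3, the alpha3 chain, was highest in the control. Its levels were 114, 108, 100.4, 90 and 97.3 CPM in the control, 11.6, 10.4, 11.4, 11.3 and 11.8 in clone1, 43.1, 40.1, 38, 38 and 42.2 in clone19 and 30.5, 24.1, 25, 23.9 and 26.3 in Rec. The 4 groups were separated without overlap, with the control highest, then clone19, then Rec, and clone1 lowest. Col4a3 fell by 3.17 on the log2 scale in clone1 (standard error 0.08, adjusted p = 3.02e-22), by 1.34 in clone19 (standard error 0.07, adjusted p = 4.06e-15) and by 1.97 in Rec (standard error 0.07, adjusted p = 2.51e-18).

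Col4a4, the alpha4 chain, was lower in all 3 groups as well. Its levels were 39.3, 43.8, 32, 28.7 and 28.7 CPM in the control, 5.38, 7.65, 7.59, 6.41 and 9.11 in clone1, 27.2, 17, 29.4, 21.5 and 23.6 in clone19 and 13.6, 10.2, 10.7, 12.6 and 10.5 in Rec. Clone1 and Rec lay below every control library, whereas clone19 overlapped the control. Relative to the control, the log2 fold change came to -2.24, standard error 0.15, adjusted p = 3.04e-13 in clone1, -0.55, standard error 0.13, adjusted p = 0.000631 in clone19 and -1.59, standard error 0.14, adjusted p = 1.08e-10 in Rec.

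Col4a5 and Col4a6, whose products join in alpha5 and alpha6 trimers, were not called in clone1, were called in opposite directions in clone19 and were lower in Rec. Col4a5 was counted at 241, 241, 204, 172 and 201 CPM in the control, 166, 186, 172, 186 and 219 in clone1, 173, 144, 175, 152 and 165 in clone19 and 106, 80.7, 97.9, 107 and 99.5 in Rec. Rec lay below all other libraries, and the other 3 groups overlapped. Its log2 fold change was -0.19, standard error 0.09, adjusted p = 0.0581 in clone1, which did not pass the threshold, -0.39, standard error 0.09, adjusted p = 0.000391 in clone19 and -1.11, standard error 0.09, adjusted p = 3.12e-11 in Rec.

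Col4a6 was counted at 64.4, 66.9, 61, 53.3 and 65.4 CPM in the control, 62.2, 73.9, 54.3, 76 and 90.5 in clone1, 106, 86.2, 96.3, 84.2 and 104 in clone19 and 29.9, 24.6, 27.1, 26.4 and 27.2 in Rec. Clone19 lay above and Rec below every control library, and clone1 overlapped the control. On the log2 scale, the fold change over the control was 0.20, standard error 0.10, adjusted p = 0.0674 in clone1, below the threshold for a call, 0.61, standard error 0.10, adjusted p = 4.04e-06 in clone19 and -1.20, standard error 0.10, adjusted p = 9.04e-11 in Rec. Neither value is firm, since the call turned under other settings: Col4a5 reached an adjusted p of 0.00154 with library totals, and Col4a6 reached 0.0350 with RLE scaling. Col4a5 also passed without control replicate 4 (0.0100) or clone1 replicate 5 (0.0305), and Col4a6 passed when any 1 of 10 libraries was left out, with adjusted p from 0.00702 to 0.0450.

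**Figure D2:**
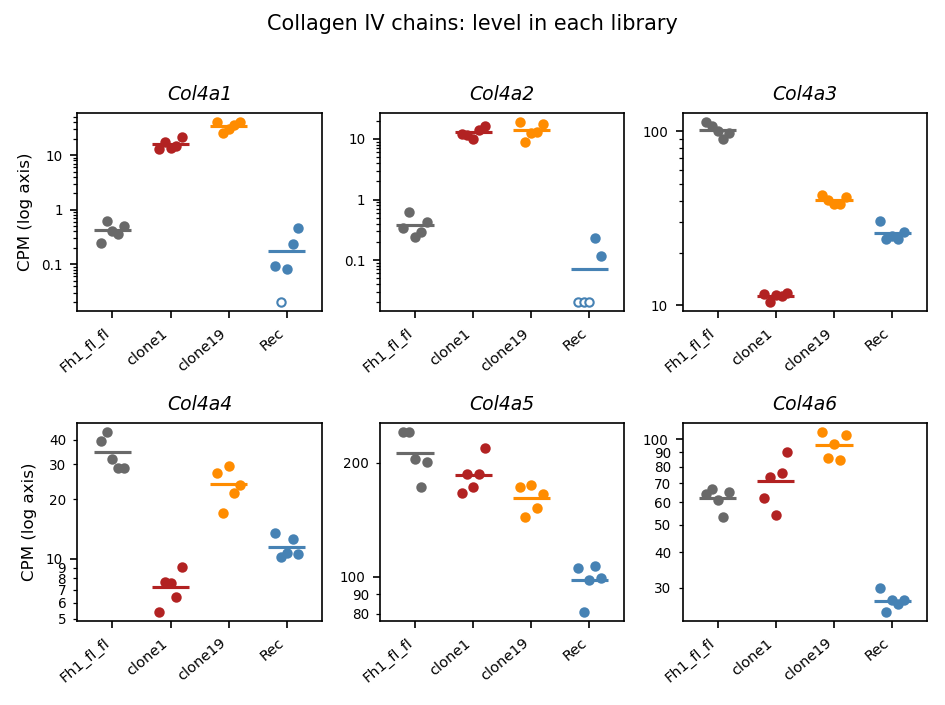
CPM (log axis, a scale per gene) of the 6 collagen IV chains in each library of the 4 groups, with group means; open circles at the bottom are libraries without a count. Col4a1 and Col4a2 are high in the 2 clones, Col4a3 and Col4a4 are highest in the control, and Col4a5 and Col4a6 are lowest in Rec.

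Summed per kilobase over the 6 chains, collagen IV stood at 52.9 ± 6.46 CPM per kb in the control, 42.5 ± 5.62 in clone1, 49.1 ± 4.87 in clone19 and 21.7 ± 2.03 in Rec (SD, n = 5). The Rec libraries lay at 18.5 to 23.9 and did not overlap the other groups, whose lowest library was at 37.6. Col4a1 and Col4a2 made up 0.218 ± 0.0629% of that sum in the control, 9.53 ± 0.607% in clone1, 13.7 ± 2.07% in clone19 and 0.152 ± 0.164% in Rec. Col4a3 and Col4a4 made up 25.5 ± 0.722% in the control, 4.3 ± 0.408% in clone1, 12.8 ± 0.319% in clone19 and 17.0 ± 1.16% in Rec. Col4a5 and Col4a6 were the larger part in every group, at 74.3 ± 0.696%, 86.2 ± 0.333%, 73.5 ± 1.79% and 82.8 ± 1.05% in the same order. RNA levels do not show how many trimers were assembled.

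**Figure D3:**
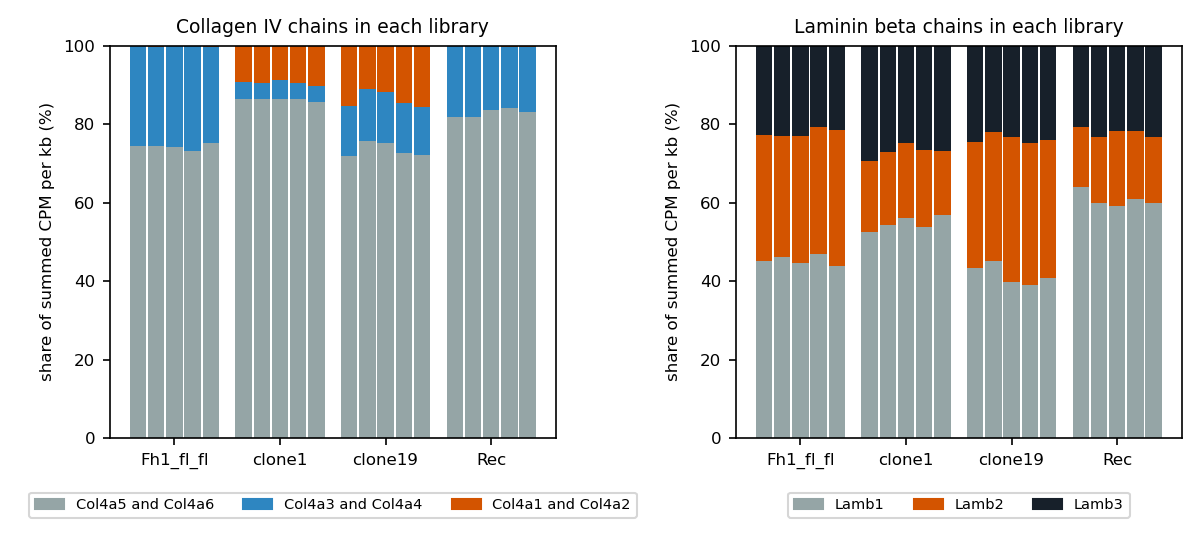
Share (%) of each chain pair in the summed CPM per kilobase of collagen IV (left) and of each chain in that of the laminin beta chains (right), with 1 stacked bar per library in the 4 groups. The Col4a1 and Col4a2 part is visible in clone1 and clone19, with means of 9.53% and 13.7%, and is too thin to see in the control and Rec; the Lamb1 part is larger in the clone1 and Rec libraries than in the control.

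Laminin chains were among the most abundant members, and of the chains above 10 CPM, Lama5 and Lamc1 rose most in both clones. Lama5, the alpha chain of laminin-511 and laminin-521, the main laminins under adult epithelia, was counted at 319, 329, 271, 265 and 350.4 CPM in the control, 556, 742, 698, 759 and 745 in clone1, 704, 475, 742, 623 and 868 in clone19 and 302, 249, 287, 299.6 and 305 in Rec. Both clones lay above every control and Rec library, while Rec and control overlapped. Its fitted log2 fold change was 1.19, standard error 0.11, adjusted p = 3.49e-10 in clone1, 1.15, standard error 0.11, adjusted p = 9.31e-10 in clone19 and -0.09, standard error 0.11, adjusted p = 0.504 in Rec. Clone1 and clone19 did not differ past the threshold (-0.04, standard error 0.11, adjusted p = 0.789).

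Lama3, the alpha chain of laminin-332, which anchors epithelial cells through hemidesmosomes, was lower in both clones by a small amount. It was counted at 113, 105, 95, 92.6 and 97.4 CPM in the control, 60.5, 76.2, 64.4, 80.6 and 99.4 in clone1, 77.1, 77.5, 78.6, 81.1 and 83.9 in clone19 and 118, 83.7, 87.1, 97.8 and 106 in Rec. Clone19 lay below every control library, and clone1 and Rec overlapped the control. The log2 fold change was -0.40, standard error 0.10, adjusted p = 0.000929 in clone1, -0.34, standard error 0.10, adjusted p = 0.00492 in clone19 and -0.03, standard error 0.10, adjusted p = 0.804 in Rec. Lama5 held 74.1 ± 1.92% of the alpha chain level per kilobase in the control, 89.7 ± 1.27% in clone1, 88.6 ± 2.16% in clone19 and 73.5 ± 1.80% in Rec.

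Lamc1, the gamma chain of most laminins, rose more in clone1 than in clone19. Its levels were 109, 103, 87.9, 77.7 and 97.9 CPM in the control, 298, 341, 309, 362 and 490.3 in clone1, 209.7, 153, 159, 169.8 and 229 in clone19 and 125, 81.5, 90.6, 96.7 and 105 in Rec. Clone1 lay above clone19 and clone19 above the control in every library, and Rec overlapped the control. Set against the control, the log2 fold change was 1.92, standard error 0.13, adjusted p = 3.95e-13 in clone1, 0.95, standard error 0.13, adjusted p = 3.45e-07 in clone19 and 0.07, standard error 0.13, adjusted p = 0.661 in Rec, and clone19 against clone1 gave -0.97, standard error 0.13, adjusted p = 2.89e-07.

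The beta chains moved separately from each other. Lamb2, the beta chain of laminin-521 and of the mature glomerular basement membrane, was counted at 107, 98.9, 87.9, 81.7 and 106 CPM in the control, 52.8, 53.1, 47.3, 58.2 and 60.1 in clone1, 125, 88.7, 123, 116 and 138 in clone19 and 49.1, 45.6, 51, 49.5 and 46.3 in Rec. Clone1 and Rec lay below every control library, and clone19 overlapped the control. On the log2 scale, the fold change over the control was -0.83, standard error 0.09, adjusted p = 8.58e-09 in clone1, 0.30, standard error 0.09, adjusted p = 0.00506 in clone19 and -1.0, standard error 0.09, adjusted p = 4e-10 in Rec, and the 2 clones differed by 1.12, standard error 0.10, adjusted p = 7.19e-11. With library totals in place of scaling, the adjusted p of Lamb2 in clone19 was 0.101.

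Lamb1, the beta chain of laminin-111 and laminin-511, was counted at 243, 241, 197, 194 and 218 CPM in the control, 251, 254, 226, 263 and 344 in clone1, 274, 200, 218, 204 and 261 in clone19 and 334, 262, 257, 284 and 268 in Rec. Rec lay above every control library and the clones overlapped the control. Its fitted log2 fold change was 0.29, standard error 0.10, adjusted p = 0.0111 in clone1, 0.08, standard error 0.10, adjusted p = 0.487 in clone19, which was not called, and 0.36, standard error 0.10, adjusted p = 0.00269 in Rec. With library totals, the calls of Lamb1 in clone1 and Rec were lost (adjusted p = 0.193 and 0.0501). Lamb3, the beta chain of laminin-332, was counted at 81.6, 80.4, 67.4, 57.3 and 70.9 CPM in the control, 93.3, 84.7, 67, 86.7 and 108 in clone1, 103, 65.1, 85.4, 86.8 and 102 in clone19 and 72.2, 67.7, 63.3, 67.8 and 70 in Rec, and all groups overlapped. Its log2 fold change was 0.30, standard error 0.11, adjusted p = 0.0176 in clone1 and 0.31, standard error 0.11, adjusted p = 0.0184 in clone19, and neither call held with library totals (adjusted p = 0.210 and 0.154) or without control replicate 4 (0.0681 and 0.0698), and the one in clone19 was also lost without clone19 replicate 1 (0.0507) or 5 (0.0663). Lamb1 held 45.3 ± 1.24% of the beta chain level per kilobase in the control, 54.8 ± 1.71% in clone1, 41.6 ± 2.59% in clone19 and 60.7 ± 1.94% in Rec.

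**Figure D4:**
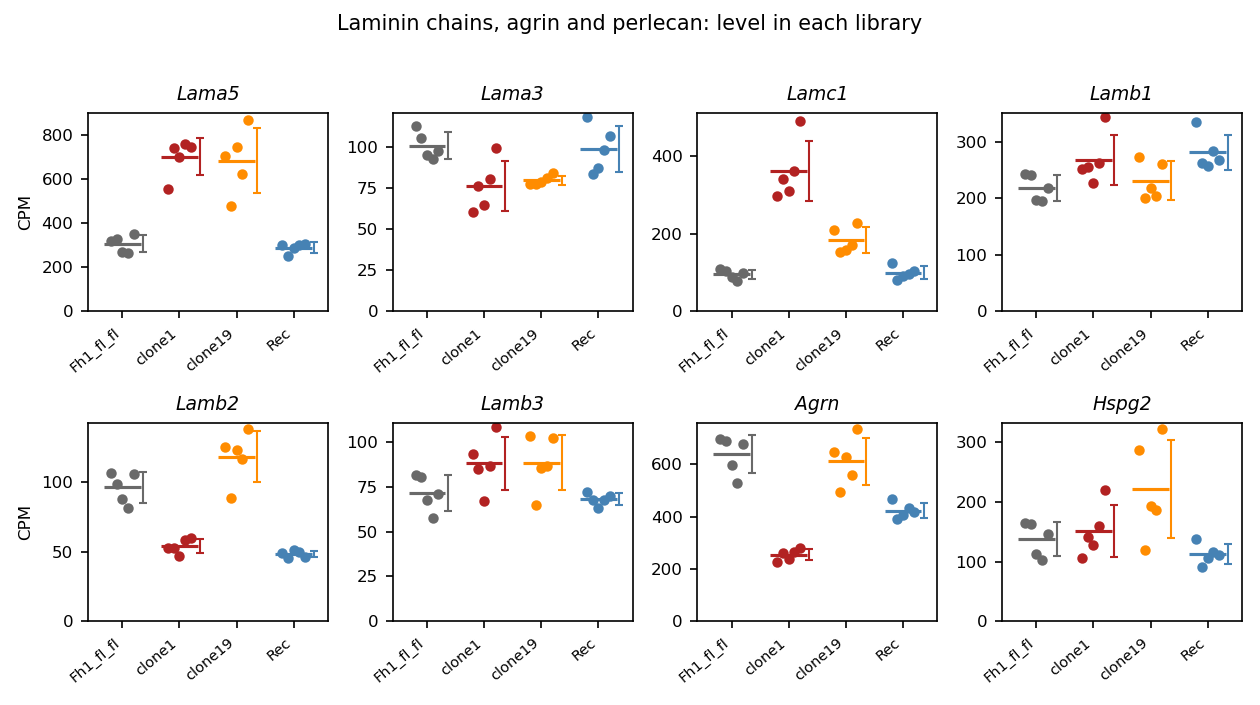
CPM (linear axes from 0, a scale per gene) of 6 laminin chains, agrin and perlecan in each library of the 4 groups, with the group mean as a line and its SD as a bar. Lama5 and Lamc1 are higher in both clones than in the control and Rec, and Agrn is lowest in clone1.

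Nidogens and proteoglycans each had a pattern of their own. Agrn, a heparan sulfate proteoglycan of basement membranes and of the neuromuscular junction, was the most abundant member in the control on the CPM scale, at 695, 691, 597, 529 and 677 CPM, against 228, 260.4, 239, 264 and 281 in clone1, 646, 496, 627, 559 and 734 in clone19 and 467, 392, 406, 434 and 416 in Rec. Clone1 and Rec lay below every control library, and clone19 overlapped the control. The log2 fold change was -1.33, standard error 0.09, adjusted p = 2.34e-13 in clone1, -0.06, standard error 0.09, adjusted p = 0.551 in clone19 and -0.59, standard error 0.09, adjusted p = 1.11e-06 in Rec. Hspg2, which encodes perlecan, was counted at 165, 162, 113, 103 and 146 CPM in the control, 105, 142, 128, 160.3 and 221 in clone1, 287, 120.1, 194, 186 and 321 in clone19 and 138, 91.4, 106, 116 and 112 in Rec. Its libraries spread widely within groups, and all groups overlapped. Against the control, the log2 fold change was 0.13, standard error 0.20, adjusted p = 0.54 in clone1, 0.69, standard error 0.20, adjusted p = 0.00308 in clone19 and -0.29, standard error 0.20, adjusted p = 0.193 in Rec, and the changes in clone1 and Rec did not pass the threshold. The value in Rec passed with no filter on low counts (adjusted p = 0.0172) and in a fit of only the groups compared (0.0366).

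Nid1, a nidogen that links laminin to collagen IV, had no count in any Rec library and 0, 0.208, 0.324, 0.143 and 0 CPM in the control, 1.20, 2.52, 2.75, 1.53 and 1.65 in clone1 and 1.16, 0.576, 0.875, 1.18 and 1.23 in clone19. It lay below the 10 CPM set for named members and is given because of its role. Against the control the log2 fold change was 3.95, standard error 0.48, adjusted p = 8.45e-08 in clone1 and 3.02, standard error 0.56, adjusted p = 4.68e-05 in clone19. Without control replicate 3, these values were 4.63 and 3.67. Taking 3 counts over the group as the floor, Nid1 was at least 2.24-fold lower in Rec than in the control, at least 38.0-fold lower than in clone1 and at least 19.9-fold lower than in clone19. The call of Rec against the control was lost without control replicate 3 (adjusted p = 0.0710). Nid2 had 3 counts in all 20 libraries together.

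Basement membrane and fibrillar members were then set side by side. Basement membrane genes summed to 2315 ± 255 CPM in the control, 2573 ± 343 in clone1, 2932 ± 447 in clone19 and 1944 ± 168 in Rec (SD, n = 5). The control range of 1958 to 2552 CPM overlapped those of clone1 (2235 to 3110), clone19 (2332 to 3491) and Rec (1762 to 2207). Fibrillar genes summed to 36.4 ± 4.85 CPM in the control, 22.7 ± 3.70 in clone1, 69.4 ± 8.81 in clone19 and 4.03 ± 0.657 in Rec, and the 4 ranges did not overlap. In clone1 the fibrillar sum mixed opposite changes, such as log2 fold changes of -4.78 for Col5a2 and 1.69 for Col5a1. Of the 17 tested basement membrane genes, 9 were higher and 5 lower in clone1, 11 and 4 in clone19, and 3 and 8 in Rec. The share called was 82.4%, 88.2% and 64.7% in that order, beside 78.6%, 72.9% and 70.8% of all tested genes. The median log2 fold change of the 17 was 0.29, 0.51 and -0.59, beside -0.03, 0.00 and -0.03 over all tested genes. With Nid1 in Rec at its bound in place of the fitted value, the median in Rec was the same. Of the 5 tested fibrillar genes, 2 were higher and 2 lower in clone1, 3 and 1 in clone19, and 1 and 3 in Rec, with medians of -0.23, 0.96 and -2.63. Here the share called was 80% in each of the 3 comparisons, beside the same shares of all tested genes. Without clone19 replicate 1, 2 in place of 1 of the fibrillar genes were lower in clone19. The difference between the 2 sets was not tested.

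Type V collagen, a minor fibrillar collagen that limits fibril diameter, had chains that came apart in clone1. It gave most of the summed fibrillar level in the control and in both clones, whereas in Rec the largest part was Col11a2, at 2.18 CPM. Col5a2 was counted at 28.4, 29, 26.3, 19.7 and 23.1 CPM in the control, 0.498, 0.969, 1.1, 1.53 and 0.694 in clone1, 56.2, 47.2, 43.1, 46 and 53.7 in clone19 and 0.187, 0.393, 0, 0.118 and 0.232 in Rec. All 4 groups were separate, with clone19 highest and Rec lowest. Relative to the control, the log2 fold change came to -4.78, standard error 0.19, adjusted p = 4.27e-18 in clone1, 0.96, standard error 0.11, adjusted p = 1.88e-08 in clone19 and -6.99, standard error 0.24, adjusted p = 5.89e-19 in Rec. The 2 clones differed by 5.74, standard error 0.19, adjusted p = 1.27e-19.

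Col5a1 was higher in both clones. It was counted at 5.44, 5.92, 4.38, 3.30 and 4.54 CPM in the control, 12.9, 13.5, 12.7, 19.1 and 18.2 in clone1, 20.2, 10.4, 17.5, 18.2 and 20 in clone19 and 0.654, 1.08, 0.982, 0.353 and 0.637 in Rec. Both clones lay above and Rec below every control library. On the log2 scale, the fold change over the control was 1.69, standard error 0.18, adjusted p = 1.67e-09 in clone1, 1.87, standard error 0.18, adjusted p = 3.81e-10 in clone19 and -2.63, standard error 0.28, adjusted p = 4.51e-09 in Rec. From group means per kilobase, Col5a1 was at 0.210 times the level of Col5a2 in the control, 18.0 times in clone1, 0.396 times in clone19 and 4.51 times in Rec. Reads of Col5a1 and of the 2 overlapping transcripts on the other strand, 2810430I11Rik and Gm13372, cannot be told apart without a strand setting. The same limit holds where exons of Col4a2 overlap Gm15419, those of Col4a3 overlap C430014B12Rik and those of Lamc3 overlap Gm13441. Exons of Col20a1 and Col7a1 overlap the counted genes BX649560.1 and Mir711 on the same strand.

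Type I and type III collagen, the bulk collagens of connective tissue, were nearly absent. Col1a1 was at 0.600 ± 0.180 CPM in the control, 3.45 ± 0.447 in clone1, 1.41 ± 0.442 in clone19 and 0.430 ± 0.187 in Rec, with a log2 fold change of 2.55, standard error 0.24, adjusted p = 2.69e-10 in clone1 and 1.27, standard error 0.29, adjusted p = 0.000384 in clone19. Its partner Col1a2 had 15 counts and Col3a1 had 2 counts over all 20 libraries. Col27a1 and Col11a2, both below 10 CPM, were the other tested fibrillar genes. Col27a1 fell from 4.76 ± 0.789 CPM in the control to 2.03 ± 0.632 in clone1, 0.677 ± 0.303 in clone19 and 0.439 ± 0.199 in Rec (log2 fold change -1.24, -2.70 and -3.48). Col11a2 was higher in Rec (1.33, standard error 0.37, adjusted p = 0.00224) and not called in clone1 or clone19, although clone19 passed without its replicate 1 (adjusted p = 0.0384). Col1a1, Col27a1 and Col11a2 were named after their values were seen.

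Other collagens held 2 genes with opposite changes in the 2 clones. Col12a1, a collagen with interrupted triple helices that sits on fibril surfaces, was counted at 27, 28.9, 18.1, 18.1 and 20.9 CPM in the control, 3.78, 5.42, 5.94, 6.72 and 7.46 in clone1, 94.1, 65.9, 66.3, 75.8 and 97.2 in clone19 and 3.09, 2.26, 3.35, 1.88 and 2.66 in Rec. The 4 groups did not overlap, and clone19 was highest. Its fitted log2 fold change was -1.95, standard error 0.17, adjusted p = 7.48e-11 in clone1, 1.82, standard error 0.14, adjusted p = 3.18e-12 in clone19 and -3.06, standard error 0.19, adjusted p = 9.02e-14 in Rec. Between the clones the difference was 3.77, standard error 0.17, adjusted p = 9.37e-17.

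Col8a1, a short-chain collagen, was counted at 265, 249, 214, 209.7 and 239.9 CPM in the control, 59.4, 57.2, 47.7, 62.1 and 74.9 in clone1, 423, 407, 391, 402 and 425 in clone19 and 421, 371, 393, 435 and 411 in Rec. Clone1 lay below all other libraries, while clone19 and Rec overlapped each other and lay above the control. The log2 fold change was -1.96, standard error 0.09, adjusted p = 2.16e-17 in clone1, 0.80, standard error 0.08, adjusted p = 1.28e-09 in clone19 and 0.79, standard error 0.08, adjusted p = 1.83e-09 in Rec, and clone19 exceeded clone1 by 2.76, standard error 0.09, adjusted p = 8.16e-20.

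Col6a1, the alpha1 chain of the beaded microfibrils of collagen VI, was counted at 5.29, 5.19, 4.30, 3.01 and 4.32 CPM in the control, 17.6, 17.2, 14.1, 16 and 17 in clone1, 8.96, 8.41, 9.98, 7.77 and 9.31 in clone19 and 1.40, 1.18, 0.818, 1.41 and 0.753 in Rec. All 4 groups were separate, with clone1 highest and Rec lowest. Against the control, the log2 fold change was 1.89, standard error 0.13, adjusted p = 4.16e-13 in clone1, 0.99, standard error 0.14, adjusted p = 6.98e-07 in clone19 and -2.05, standard error 0.19, adjusted p = 4.85e-10 in Rec. Of its partner chains, Col6a2 had 90 counts and Col6a3 had 11 counts over all libraries, and neither passed the filter for testing.

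Col18a1, the source of the endostatin fragment and a collagen of epithelial basement membranes, did not differ from the control past the threshold in any group, at 216 ± 37.8 CPM, 242 ± 42.3, 205 ± 41.7 and 198 ± 12.5 in the control, clone1, clone19 and Rec. Relative to the control, the log2 fold change came to 0.17, -0.07 and -0.13, with standard errors of 0.13, 0.13 and 0.13. Col7a1, the anchoring fibril chain under stratified epithelia, was at 17.5 ± 1.73 CPM in the control, 14.6 ± 3.33 in clone1, 23.4 ± 3.27 in clone19 and 14.1 ± 1.38 in Rec. Its log2 fold change was 0.43, standard error 0.13, adjusted p = 0.0037 in clone19 and -0.31, standard error 0.13, adjusted p = 0.0316 in Rec, and the call in Rec was lost without control replicate 3 or 4 or without Rec replicate 1, 4 or 5, each left out alone, with adjusted p from 0.0577 to 0.0998. Clone1 (-0.28, standard error 0.13, adjusted p = 0.0513) was not called for Col7a1, but passed without clone1 replicate 2, 3 or 4, each left out alone (adjusted p from 0.0242 to 0.0489), with library totals (0.00518), with no filter on low counts (0.0191) and with replicate number as a block (0.0382).

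**Figure D5:**
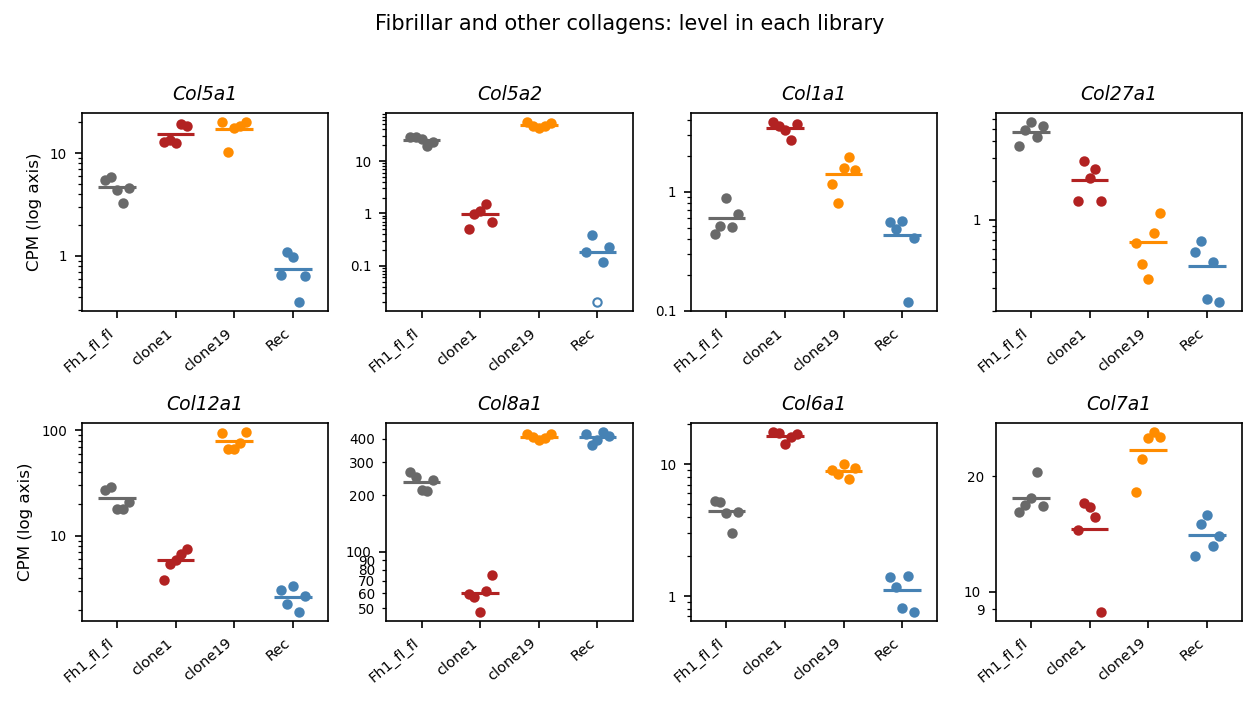
CPM (log axis, a scale per gene) of 4 fibrillar collagens in the upper row and 4 other collagens in the lower row, in each library of the 4 groups with group means; the open circle at the bottom is a library without a count. Col5a2 and Col12a1 are highest in clone19, and Col6a1 is highest in clone1.

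The remaining members with counts were low. Col16a1, Col20a1 and Lamc3 passed the filter with levels of at most 4.16 CPM as a group mean, and were named after their values were seen. Col16a1 fell from 3.07 ± 0.255 CPM in the control to 0.171 ± 0.118 in clone1 (-4.09, standard error 0.32, adjusted p = 4.48e-12). Col16a1 was also lower in Rec (-1.14, standard error 0.20, adjusted p = 1.08e-05). In clone19 it was lower by a smaller amount (-0.48, standard error 0.19, adjusted p = 0.0307), a call lost with DESeq2 (adjusted p = 0.0594), with no filter on low counts (0.0677), with replicate number as a block (0.0503) and when any 1 of 5 libraries, clone19 replicates 1, 3 and 4 and control replicates 1 and 2, was left out (up to 0.112). Lamc3 rose from 1.01 ± 0.184 CPM in the control to 2.73 ± 0.466 in clone1, 3.29 ± 0.538 in clone19 and 2.90 ± 0.563 in Rec (log2 fold change 1.45, 1.73 and 1.51). Col20a1 rose from 0.871 ± 0.581 to 4.16 ± 1.13 CPM in clone19 (2.14, standard error 0.31, adjusted p = 9.3e-07). Col20a1 was also higher in clone1 (1.19, standard error 0.34, adjusted p = 0.00275) and in Rec (1.11, standard error 0.33, adjusted p = 0.00439). The other 30 members did not pass the filter: 3 of them (Col9a1, Lama1 and Col23a1) had no count in any library, and 22 had at most 10 counts in all. Their highest group mean was 0.702 CPM, in Col15a1. Among them were Lama2, Lama4 and Lama1, alpha chains of other tissues, with 20, 4 and 0 counts. A count of 0 in a single library allows up to 3 counts, or 0.158 to 0.501 CPM depending on the library. A total of 0 over all libraries sets a tighter limit.

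Promoter windows of 300 bases, from 250 before to 50 after the start, were available in the RefSeq table for 43 of the 59 members. The median CpG number was 16 in the 21 tested members with a window and 8.5 in the 22 that were not tested, beside 7 over 27025 genes. The GC box (GGGCGG on either strand) was in 76.2% of the tested and 54.5% of the untested windows, beside 35.9% of all genes. The letters CCAAT were in 38.1% and 27.3%, beside 37.9%, and TATAAA in 4.76% and 18.2%, beside 14.2%. These are descriptions of the windows and were not tested.

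Most of the tested genes that modify and fold collagen in the endoplasmic reticulum were higher in the clones. Of 18 tested genes of the 19 listed, 14 were higher and 2 lower in clone1 and 15 were higher and 1 lower in clone19, with a median log2 fold change of 0.82 and 0.77. Those called in either direction were 88.9% in both clones, where 78.6% and 72.9% of all tested genes were called (38% and 36.8% higher). In Rec, 2 were higher and 7 lower, with a median of -0.25. The share called in Rec was 50%, beside 70.8% of all tested genes. Over all tested genes these medians were -0.03, 0.00 and -0.03. This list and the lists below were chosen with earlier results of these data known, so their counts are descriptions. Fkbp10, a collagen chaperone, rose from 17.4 ± 2.72 CPM to 62.9 ± 9.29 in clone1 (1.86, standard error 0.12, adjusted p = 2.17e-13) and 45.5 ± 7.43 in clone19 (1.39, standard error 0.13, adjusted p = 2.2e-10). P3h2, a prolyl 3-hydroxylase that acts on collagen IV, rose from 33.8 ± 0.470 CPM to 119 ± 15.3 and 65.1 ± 7.26 (log2 fold change 1.81 and 0.95). P3h4, a partner of lysyl hydroxylase, rose from 17.3 ± 3.04 CPM to 55.6 ± 7.43 and 37.9 ± 2.68 (log2 fold change 1.70 and 1.14). P3h2 was lower in Rec than in the control (-0.63, standard error 0.10, adjusted p = 1.82e-06), and Fkbp10 and P3h4 were not called in Rec.

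Enzymes of trimming and crosslinking were mixed, with 3 of 8 tested genes (14 listed) higher and 3 lower in clone1, 5 and 3 in clone19, and 5 and 2 in Rec. The share called was 75% in clone1, 100% in clone19 and 87.5% in Rec, beside 78.6%, 72.9% and 70.8% of all tested genes. Loxl2, a lysyl oxidase-like enzyme that crosslinks collagen IV, rose from 1.27 ± 0.286 CPM in the control to 13.3 ± 0.874 in clone1, 2.64 ± 0.570 in clone19 and 3.82 ± 0.591 in Rec (log2 fold change 3.35, 1.02 and 1.57). Loxl3, of the same family, rose from 0.952 ± 0.294 CPM to 11.3 ± 1.91, 4.88 ± 0.483 and 2.45 ± 0.757 (log2 fold change 3.53, 2.31 and 1.35). Pcolce, which speeds removal of the propeptide of fibrillar collagens, rose from 33.5 ± 1.82 CPM to 212 ± 32.8 in clone1 (2.66, standard error 0.09, adjusted p = 9.16e-20) and fell to 23.4 ± 2.03 in clone19 (-0.51, standard error 0.10, adjusted p = 4.8e-05).

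Proteins that associate with basement membranes were also mixed, with 5 of 13 tested genes (18 listed) higher and 6 lower in clone1, 6 and 5 in clone19, and 4 and 7 in Rec. The share called was 84.6% in each group, beside the same 78.6%, 72.9% and 70.8% of all tested genes. Frem2, a protein that holds epithelium to the underlying matrix, was at 16.8 ± 4.24 CPM in the control, with 1 count in clone1 over 5 libraries, which is a ratio of 798 (95% interval 143 to 31551, counting error only) in favour of the control. In clone19 and Rec it was at 0.506 ± 0.242 and 0.674 ± 0.222 CPM (log2 fold change -5.05 and -4.54). Fbln1, a fibulin of basement membranes and elastic fibres, rose from 0.0691 ± 0.0521 CPM to 25 ± 4.86 in clone1 (8.24, standard error 0.31, adjusted p = 8.08e-19) and 2.72 ± 0.801 in clone19 (5.01, standard error 0.48, adjusted p = 4.15e-10). Fbln2, a fibulin that binds nidogen and perlecan, rose from 1.53 ± 0.632 CPM to 11.8 ± 1.36, 9.10 ± 1 and 10.1 ± 1.51 in clone1, clone19 and Rec (log2 fold change 2.92, 2.56 and 2.71).

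Among 12 tested receptors for collagen and laminin (13 listed), 5 were higher and 5 lower in clone1, 5 and 4 in clone19, and 4 and 6 in Rec. With 83.3%, 75% and 83.3% called, these shares lay near those of all tested genes in the clones (78.6% and 72.9%), beside 70.8% in Rec. Ddr2, a kinase receptor for fibrillar collagen, stood at 0.523 ± 0.245 CPM in the control and rose to 34 ± 4.68 and 97.1 ± 8.95 in the clones (log2 fold change 6.01 and 7.53). Itga7, a laminin-binding integrin chain, rose from 0.669 ± 0.196 CPM to 38.6 ± 8.22 and 10.3 ± 1.88 (log2 fold change 5.78 and 3.87). Itga2, a collagen-binding integrin chain, fell from 76.6 ± 12.4 CPM to 45.9 ± 13.7 in clone1 (-0.74, standard error 0.18, adjusted p = 0.000543) and 10.1 ± 2.12 in clone19 (-2.96, standard error 0.22, adjusted p = 2.54e-12).

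Markers of other cell types were examined as lists, and in several lists 1 gene gave most of the summed level. Of 8 fibroblast markers, Lum, Thy1 and Tcf21 had no count in any group, and the summed level was 3.89 to 5.82 CPM in the control, 1.59 to 3.96 in clone1, 11.4 to 14.4 in clone19 and 6.45 to 8.36 in Rec. Of 8 pericyte and smooth muscle markers, Pdgfrb had no count, and the sum was 38.6 to 57.6 CPM in the control, 18.3 to 23.5 in clone1, 70.8 to 86.5 in clone19 and 11.5 to 15.8 in Rec, most of it from Mcam. The endothelial sum was 0.573 to 0.811 CPM in the control, 2.60 to 4.94 in clone1, 7.83 to 10.7 in clone19 and 1.12 to 2.26 in Rec, most of it from Cdh5 in clone19, with Emcn at 0 in the control and clone19. Of the 8 podocyte markers, Nphs1, Wt1 and Ptpro had group means of at most 0.0938 CPM, and the sum of 158 to 184 CPM in the control, 198 to 290.5 in clone1, 208 to 246 in clone19 and 166 to 202 in Rec came mostly from Podxl. The summed level of 8 leukocyte markers was 68.4 to 76.9 CPM in the control, 39.2 to 50.5 in clone1, 30.6 to 37.3 in clone19 and 32.6 to 39.7 in Rec. The fibroblast, pericyte and endothelial sums were highest in clone19, but the genes within a list did not move together. In the fibroblast list, Dcn and Pdgfra were highest in clone19, at 8.50 and 3.57 CPM. Postn was lowest there, at 0.556 CPM, against 3.90 in the control and 6.24 in Rec. In the pericyte and smooth muscle list, Acta2 had group means of at most 0.0611 CPM. The part of such cells in the levels of the members was not tested. In bulk samples, fewer cells of a type and less RNA per cell cannot be told apart.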

How the data were processed

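RNA sequencing counts of 20 libraries were used, in 4 groups of 5 taken from the sample titles. The authors deposited 1 table of raw read counts per Ensembl gene for each library. The submitters' processing notes name GRCm38 as the build, with TopHat2 2.0.4, HTSeq 0.5.3p9 and DESeq 1.10.1. What each tool did, which annotation was counted, whether strand was used and what was filtered are not given in the sources used. Summary lines entered neither library sizes nor tests: 28.8 to 40.3% of each library were reads with no unique alignment, 3.28 to 6.73% fell in no feature and 0.462 to 0.653% were ambiguous.

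Symbols and coordinates came from GENCODE M21 (GRCm38), which named 37693 of the 39179 genes. The analysis used edgeR 4.0.16 under R 4.3.3. After filterByExpr, 12671 genes were scaled by TMM and fitted in 1 quasi-likelihood model of all 20 libraries with a mean per group, and each contrast was tested two-sided with Benjamini-Hochberg adjustment over all 12671 genes. The common biological coefficient of variation was 9.02%. The pipeline was tested on simulated data. DESeq2 1.42.0, RLE scaling, library totals, no filter, a fit of only the groups compared, a block by replicate number and leaving out each library were alternatives. Lengths are merged exons over all isoforms. Counts cover counting error only, 3 counts being the limit that a count of 0 allows.

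The members and lists were chosen with earlier results of these data known. A member was named if tested with a group mean of at least 10 CPM, or as a collagen IV chain or a partner in the same trimer; of each pathway list, the 3 genes with the largest change among those called in a clone and at 10 CPM or more were named. Promoter sequences are from RefSeq (GRCm38.p6); 16 members without an entry were not searched for elsewhere. Values of some genes are not reported here, although counts and sums over members and markers include them.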

Additional observations from a re-analysis of the deposited data

Results flagged for a closer look

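For 4 members, the 2 clones were called on opposite sides of the control. These members were picked by those calls. The test of clone19 against clone1 therefore gives the size of the difference and is no further support for the directions. The log2 difference was 5.74 for Col5a2 (adjusted p = 1.27e-19), 3.77 for Col12a1 (adjusted p = 9.37e-17), 2.76 for Col8a1 (adjusted p = 8.16e-20) and 1.12 for Lamb2 (adjusted p = 7.19e-11). Against the control, the log2 fold change in clone1 and clone19 was -4.78 and 0.96 for Col5a2, -1.95 and 1.82 for Col12a1, -1.96 and 0.80 for Col8a1, and -0.83 and 0.30 for Lamb2. For Lamb2, clone19 overlapped the control, and its call in clone19 was lost with library totals (adjusted p = 0.101).

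In 1 of 84 groups of 5 libraries, 1 library lay apart by Dixon's criterion (critical value 0.71), and chance gives about 1 in 20. Col5a1 in clone19 had its lowest library, replicate 2, at 10.4 CPM against 17.5 in the nearest other. Col5a1 kept its calls without that library.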

How the results depend on the processing

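Of 144 counts of called members under other settings, 143 stayed within 1.5 times of the reported count, and of 480 counts with 1 library left out, 478 did. The exceptions were the members lower in clone19 against clone1, which numbered 9 with no low-count filter, where more genes were tested, and 4 to 8 with 1 library left out, and the fibrillar members lower in clone19 against the control, which numbered 1 to 2 with 1 library left out. The sign turned only for values that were not called: with library totals, the log2 fold change was -0.011 for Hspg2 in clone1, -0.043 for Lamb1 in clone19 and -0.064 for Lamc1 in Rec. With 1 library left out, it ranged from -0.13 to 0.0084 for Agrn in clone19, -0.61 to 0.10 for Col11a2 in clone1, -0.16 to 0.033 for Col18a1 in clone19, -0.012 to 0.28 for Hspg2 in clone1, -0.10 to 0.042 for Lama3 in Rec and -0.023 to 0.15 for Lamc1 in Rec, all against the control, and from -0.0016 to 0.29 for Col4a2 in clone19 against clone1. The causes of these changes, apart from the number of genes or samples, were not tested.

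Replicate numbers did not pair the samples: deviations of same-numbered libraries correlated at -0.20 to 0.16 over 30 pairs, of which 6 exceeded 0.1 and 4 were best matched by their own number. With replicate number as a block, 20 of 24 counts were unchanged; members lower in clone1 against the control numbered 11 in place of 10, in clone19 against clone1 6 in place of 5, in clone19 against the control 5 in place of 6, and in Rec against clone1 16 in place of 15. The chi-square per degree of freedom between replicates was 2.04 to 19.4 without clone19 replicate 3 and 61.8 to 92.2 with it. Depth limits the members below about 1 CPM, such as Col4a1 and Col4a2 in the control and Rec.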

Other observations

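Within a group, the same library often gave the highest or lowest level of many members. Of the 22 members with a group mean of at least 10 CPM, control replicate 4 was the lowest control library in 18, and clone1 replicate 5 was the highest clone1 library in 17. Clone19 replicate 2 was the lowest of its group in 14 members, and Rec replicate 2 was the lowest of its group in 11. The matching shares over all tested genes were not computed, so these counts are not read as particular to the members.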
